A study of Mus musculus with 8 samples.

Results

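Genomic imprinting marks a subset of genes so that the copy inherited from the mother or from the father is preferentially transcribed, and many imprinted genes are expressed in the brain. A panel of 39 imprinted genes was followed in adult mouse frontal cortex, out of 55536 genes in the deposited count table. The panel was given by gene symbol, with a rule that uses no measured value, although earlier results of these data were known when it was chosen. Every one of the 39 symbols matched a single row through the GENCODE annotation of the same GRCm38 build. The 39 genes fall into 18 chromosomal domains, of which 19 genes are listed as paternally expressed and 13 as maternally expressed. The other 7 were listed as mixed, because the expressed copy depends on tissue or transcript or because imprinting in brain is partial or lacking.

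The study compared wild-type (WT) mice with HAR123-KO mice, in which the mouse sequence of the HAR123 enhancer, within an intron of Smg6, was deleted. It asked which cortical genes depend on this enhancer. The 2 genotypes were represented by 4 WT and 4 HAR123-KO libraries of total RNA depleted of ribosomal RNA, all from frontal cortex of mice aged 8 weeks. The deletion was made with CRISPR-Cas9 in C57BL/6J embryos, the lines were backcrossed to C57BL/6J, and the controls were WT littermates; no other allele or treatment is named. HAR123 is not a row of the count table, so no row of the table checks the labelled genotype. The labels do not say whether the 4 libraries of a genotype came from separate animals, nor give the animals' sex, so the p-values measure the spread between these libraries, which may be partly technical. Both parental copies are C57BL/6J, and the counts sum them, so which copy was expressed was not measured.

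Imprinted genes usually lie in clusters, each controlled by a short region whose DNA methylation differs between the egg and the sperm. The unmethylated copy of the control region typically drives a noncoding RNA or binds an insulator protein, and neighbouring protein-coding genes are then silenced on one parental copy. In the brain, imprinted genes act in neuronal growth, feeding and maternal behaviour, and several, such as Ube3a and Grb10, have a parental bias there that differs from the one in other tissues.

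Read totals ran from 13528251 to 17051001 per library, but Gm42418, a gene lying over ribosomal RNA sequence, took 56.8% to 58% of them in WT and 55.1% to 57.4% in HAR123-KO. Mitochondrial ribosomal RNA took 9.24% to 9.69% in WT and 10% to 10.9% in HAR123-KO, without overlap. Nuclear protein-coding genes received 2786320 to 3732172 counts per library, and the 39 imprinted genes 25639 to 34684. PCR copies carried no molecular identifiers, so the counting error of a library is understated. Neuronal markers had summed normalized counts of 29242 to 29886 in WT and 28831 to 29203 in HAR123-KO libraries. Lists of other cell types also moved with genotype. Striatal projection neuron markers summed to 5335 to 5580 in WT and 6970 to 7168 in HAR123-KO libraries, with 12 of 12 markers higher on average. Choroid plexus markers summed to 976 to 1014 in WT and 1924 to 2023 in HAR123-KO, with 13 of 13 higher. Oligodendrocyte markers summed to 15338 to 15856 against 17451 to 17787, with 8 of 10 higher, while astrocyte markers summed to 23643 to 24383 against 22024 to 22583, with 8 of 10 lower. Endothelial markers summed to 645.5 to 682.1 against 520.1 to 579.6, with 8 of 10 lower, and fibroblast markers to 289.3 to 326.3 against 232 to 281.6, with 12 of 13 lower. Microglial sums overlapped, at 1066 to 1168 in WT and 1042 to 1094 in HAR123-KO, with 6 of 9 lower. Hypothalamic markers summed to at most 14.26 and monoamine neuron markers to at most 17.02 in any library, with Hcrt and Slc6a4 at 0. The part of these shifts, and of the ribosomal shares, in the differences between genotypes given here was not tested, and in bulk tissue fewer cells of a type and less RNA per cell cannot be told apart.

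Levels of the imprinted genes spanned a wide range. Per kilobase (kb) of exon, 10 of the 39 genes had at least 100 normalized counts, 26 had at least 10, and 8 had under 1. Meg3, a maternally expressed long noncoding RNA, had the highest level, 614 normalized counts per kb over all 8 libraries, and alone held 38.3% of the summed normalized counts of the panel. Next came Snrpn, which encodes the neuronal splicing protein SmN, at 378.5 per kb, and Nap1l5, an intronless gene of the nucleosome assembly protein family, at 316.9 per kb. Gnas, which encodes the stimulatory G protein alpha subunit, had 231 per kb, and the noncoding RNA Peg13 had 211.9 per kb. From Meg3 down to Impact, neighbours in this order had ranges over the 8 libraries that did not overlap. The ranges of Impact and Ppp1r9a overlapped, as did those of Peg3 and Rian, and from Ndn down the only neighbours without overlap were Igf2r and Grb10.

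**Figure D1:**
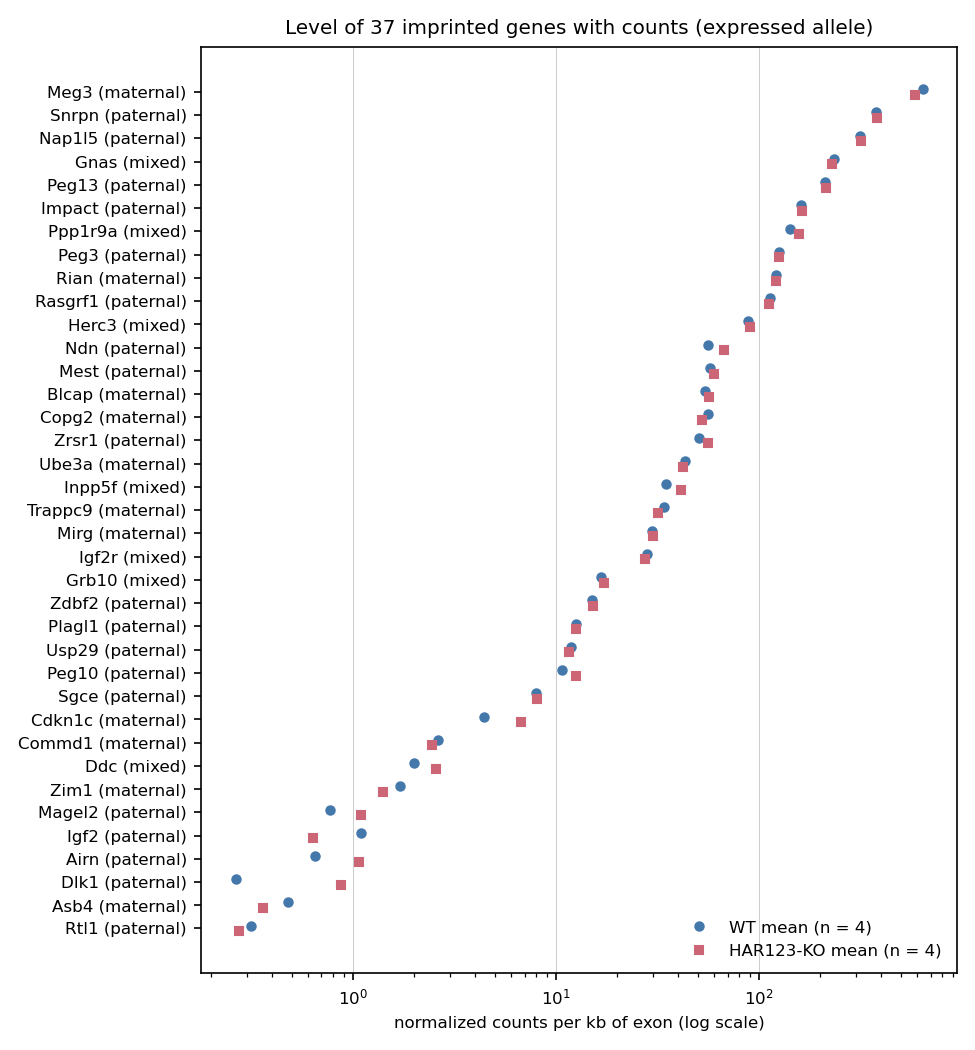
Mean level of the 37 imprinted genes that had any count, in normalized counts per kb of exon on a log axis, with WT means as circles and HAR123-KO means as squares (n = 4 each) and the listed parental allele in brackets. Levels run from below 1 to 614 per kb, and the 2 genotype means lie close together for the genes above 10 per kb.

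Of the 39 genes, 27 had enough counts to receive an adjusted p from DESeq2, whose independent filter removed genes with a mean under 17.6 normalized counts. None of the 27 passed the limits used for this tissue, which ask for an adjusted p under 0.05 together with a log2 fold change beyond 0.5 in either direction and which 0.298% of the 12758 genes tested did. With edgeR or limma-voom 0 genes of the panel passed them as well. Without a minimum fold, 2 of the 27 had an adjusted p under 0.05, Meg3 lower and Ppp1r9a higher in HAR123-KO, where the share among all genes tested was 1.69%. An unadjusted p under 0.05 was found for 4 of the 27, Meg3, Ppp1r9a, Ndn and Inpp5f, against 8.78% of all genes tested. Values of the 2 genotypes did not overlap for 5 of the 27, against 7.67% of all genes tested. In direction, 16 genes were higher and 11 lower in HAR123-KO, and the median log2 fold change was 0.02, beside -0.00 over all genes tested. Fitted log2 fold changes ran from -0.12 to 0.26.

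These counts also set limits on how large a difference could have gone undetected. For 26 of the 27 genes the 95% interval of the log2 fold change lay wholly between -0.5 and 0.5, against 70.5% of all genes tested. The panel was deeper than the average gene, with a median of 277.2 normalized counts beside 105.7 for all genes tested. Among the 7569 genes tested whose mean was at least that of the lowest member tested, 77.3, the share inside these bounds was 96.3%. The exception was Peg10, whose interval reached 0.53. Inside the narrower bounds of -0.3 and 0.3 lay 22 of the 27.

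**Figure D2:**
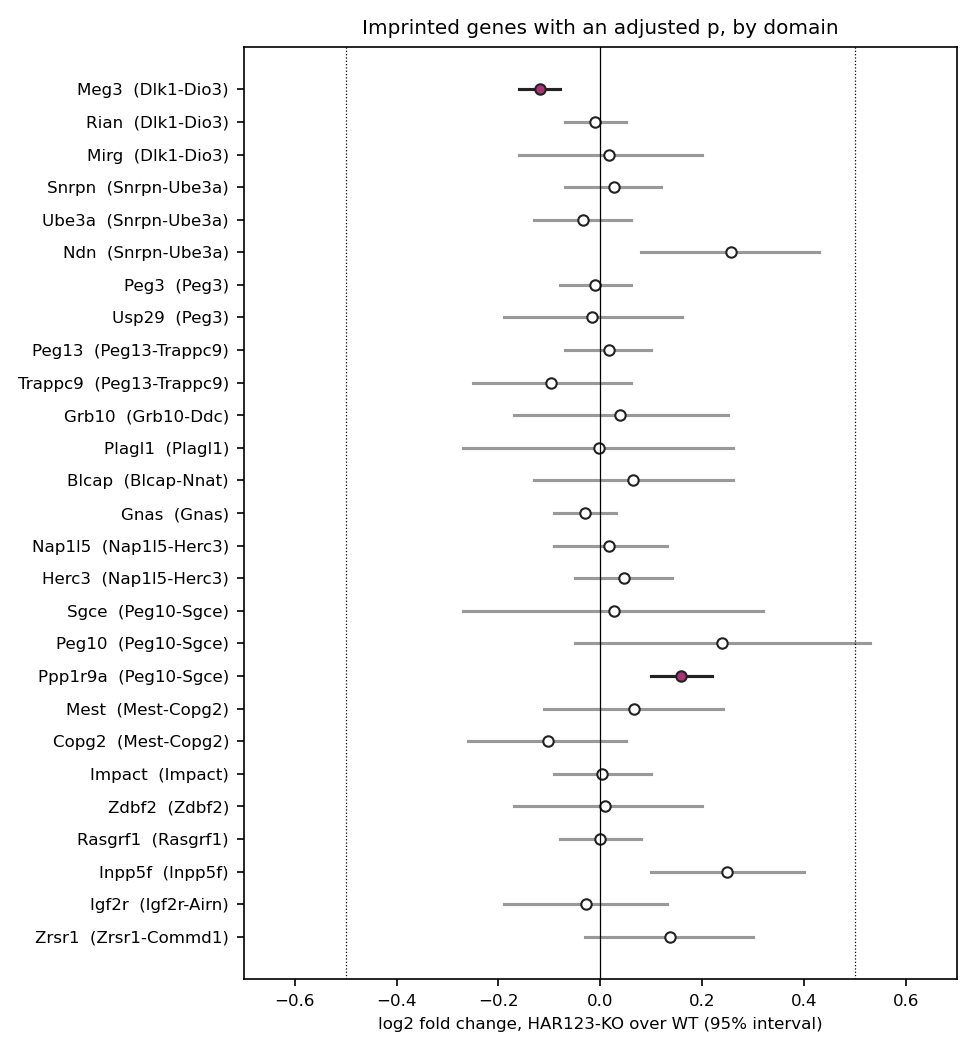
Log2 fold change of HAR123-KO over WT (points) with its 95% interval (lines) for the 27 imprinted genes with an adjusted p, ordered by domain. Filled points are Meg3 at -0.12 and Ppp1r9a at 0.16, the genes with an adjusted p under 0.05, and dotted lines mark -0.5 and 0.5.

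Split by expressed copy, 14 of the 19 paternally expressed genes were tested, 10 higher and 4 lower, the median log2 fold change being 0.02, and none called by DESeq2, with 1 at an unadjusted p under 0.05. Of the 13 maternally expressed genes, 7 were tested, 2 higher and 5 lower, with a median of -0.04 and Meg3 called. Of the 7 mixed genes, 6 were tested, 4 higher and 2 lower, with a median of 0.04 and Ppp1r9a called. The difference between these groups was not tested.

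The Dlk1-Dio3 domain of chromosome 12 held the only maternally expressed gene called. Its maternal copy produces a row of noncoding RNAs, Meg3, then Rian, which carries small nucleolar RNAs (snoRNAs), then Mirg, which carries microRNAs, while its paternal copy produces the proteins Dlk1, a Notch-ligand-like membrane protein, and Rtl1, which derives from a retrotransposon. Meg3 (ENSMUSG00000021268, chr12:109541001-109571726 on GRCm38, plus strand) was at 11272, 11537, 11582 and 11848 normalized counts in the WT libraries and at 10768, 10771, 10599 and 10477 in the HAR123-KO libraries. Every HAR123-KO library lay below every WT library. The mean fell from 11559 ± 235.9 (SD, n = 4) to 10654 ± 142.5 (SD, n = 4), and the fitted log2 fold change was -0.12 ± 0.02 (SE) with an adjusted p of 8.78e-06 by DESeq2. On the linear scale Meg3 fell by 7.84% (95% interval of the change -10.5% to -5.14%). The call was lost when library totals, which are mostly Gm42418 reads, were used for scaling (log2 fold change -0.08, adjusted p 0.423 by DESeq2). Exons of other genes cover 1.5% of the Meg3 exons on its own strand and 6.79% on the other strand, the longest being those of Gm26906, which had 0 counts.

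The promoter of Meg3 is shown because it is the start of the one transcript unit of the domain that was called. Its first listed window (RefSeq, GRCm38.p6, chr12:109540746-109541045, plus strand, 250 bases before the start and 50 after) is printed with matches to TGCCGC in capitals on either strand. This hexamer is the core of the site bound, when methylated, by ZFP57, a zinc finger protein that protects imprints in the early embryo.

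Meg3 promoter: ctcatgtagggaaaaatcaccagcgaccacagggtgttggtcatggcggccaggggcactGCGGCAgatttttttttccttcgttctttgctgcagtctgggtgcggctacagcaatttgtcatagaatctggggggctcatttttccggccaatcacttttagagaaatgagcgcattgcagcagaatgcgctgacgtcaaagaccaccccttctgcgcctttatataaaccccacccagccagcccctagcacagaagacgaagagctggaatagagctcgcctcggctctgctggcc

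The window holds 1 such match, and an unmarked match to TGACGTCA, the site of the CREB family of activators. A match is only a run of letters, and neither binding nor methylation was measured. Promoter windows were available for 31 of the 39 genes, 50 windows in all. TGCCGC on either strand occurred in 13 of the 50 windows (26.0%), from 12 genes, beside 11.6% of all 32851 windows of the same length. TGCCGC and TGACGTCA each contain a CpG, and the panel windows were richer in CpG than all windows. Their median observed over expected CpG ratio was 0.6, against 0.38, and the part of this in the motif shares was not tested. TGACGTCA occurred in 4 of the 50 (8.0%), those of Meg3, Peg3, Usp29 and Zdbf2, beside 1.79% of all windows, and the Peg3 and Usp29 windows share 263 bases, so these 2 are not separate matches. GCCATNTT, bound by YY1, occurred in 1 of the 50 (2.0%), that of Ube3a, beside 6.05% of all windows. The motifs do not overlap each other in letters, and the windows of 1 gene can overlap.

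Neither Rian nor Mirg was called, and only for Rian did the interval leave out the fold change of Meg3. Rian was at 2169, 2254, 2245 and 2182 normalized counts in WT and at 2206, 2209, 2204 and 2175 in HAR123-KO. The HAR123-KO values fell inside the WT range, and the log2 fold change was -0.01 ± 0.03 (SE), with a 95% interval of -0.07 to 0.05. Mirg was at 202.6, 231.6, 226.2 and 203.3 in WT and at 196.6, 216.8, 243 and 218 in HAR123-KO, which overlapped, with a log2 fold change of 0.02 ± 0.09 (SE). The interval of Mirg, -0.16 to 0.20, includes the value found for Meg3, whereas that of Rian does not. The ratio of Rian counts to Meg3 counts needs no scaling between libraries. This ratio, looked at after the values were seen, was 0.1925, 0.1953, 0.1939 and 0.1842 in the WT libraries and 0.2049, 0.2051, 0.2079 and 0.2076 in the HAR123-KO libraries, so the genotypes did not overlap. For Mirg over Meg3 the ratio overlapped, at 0.01716 to 0.02008 in WT and 0.01826 to 0.02293 in HAR123-KO. No test of these ratios was made.

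**Figure D3:**
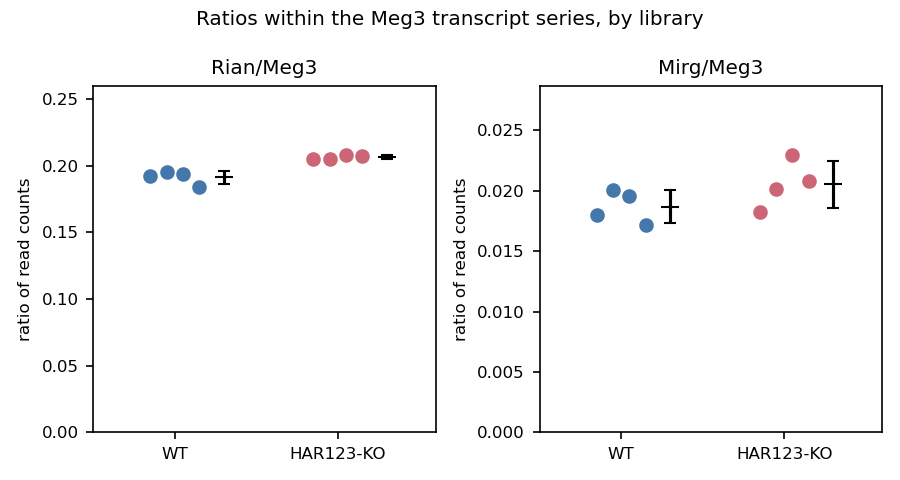
Ratio of read counts of Rian to Meg3 (left) and of Mirg to Meg3 (right) in each library (points), with mean and SD beside them (n = 4 per genotype). Rian over Meg3 runs from 0.1842 to 0.1953 in WT and from 0.2049 to 0.2079 in HAR123-KO, and Mirg over Meg3 overlaps between genotypes.

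Mature small RNAs were not measured, and the sequences below are shown because they are what these hosts encode. RefSeq places 14 microRNA hairpins inside Mirg, 3 inside Rian and 1 inside Meg3, and 6 on the strand opposite to Rtl1. In the mature microRNAs below, all from chromosome 12, the seed (bases 2 to 8), which pairs with target mRNAs, is in capitals. They are the products of the Meg3 hairpin, a product antisense to the Rtl1 mRNA, and the only 2 mature microRNAs in the panel's hosts with the same seed, both inside Mirg.

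miR-770-5p (chr12:109563710-109563731): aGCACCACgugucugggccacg
miR-770-3p (chr12:109563744-109563765): cGUGGGCCugacguggagcugg
miR-127-3p (chr12:109592888-109592909): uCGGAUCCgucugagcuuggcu
miR-453 (chr12:109735669-109735692): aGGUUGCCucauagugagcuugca
miR-496a-5p (chr12:109739132-109739152): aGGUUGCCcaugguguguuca

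Host transcripts and their small RNA genes are separate rows of the table. The 13 snoRNA genes inside Rian had 257 counts over all 8 libraries together, or 27 to 42 per library. The 4 microRNA genes inside Rian had 289 counts, and the 15 inside Mirg had 165. These sums were not compared by genotype. Dlk1 was close to the detection limit, at 1.126, 1.03, 1.695 and 2.14 normalized counts in WT and 4.095, 3.803, 4.402 and 7.444 in HAR123-KO. These are 1 to 2 reads per WT library and 4 to 7 per HAR123-KO library, which did not overlap. Its unadjusted p of 0.044 came with no adjusted p, and the lowest adjusted p in the 3 alternative fits that gave one was 0.937. Rtl1, at 0 to 4 reads per library, could not be compared.

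Ppp1r9a, in the Peg10-Sgce domain of chromosome 6, was the gene called in the other direction. It encodes neurabin, an actin-binding protein that brings protein phosphatase 1 to dendritic spines, and its imprinting is known mainly from placenta. Ppp1r9a (ENSMUSG00000032827, chr6:4902917-5165661, plus strand) was at 1993, 2051, 2091 and 2080 normalized counts in WT and at 2347, 2296, 2297 and 2230 in HAR123-KO. All 4 HAR123-KO libraries exceeded all 4 WT libraries. The mean rose from 2054 ± 43.98 (SD, n = 4) to 2293 ± 47.82 (SD, n = 4), an increase of 11.6% (95% interval 6.89% to 16.5%), with a log2 fold change of 0.16 ± 0.03 (SE) and an adjusted p of 0.000102 by DESeq2. No exon of another gene overlaps its exons. The promoter window of its first listed start (chr6:4903061-4903360, plus strand) has no TGCCGC and is printed in lower case. It is the window of the panel richest in CpG, with 48 CpG dinucleotides, a GC content of 82% and an observed over expected CpG ratio of 0.97. The median ratio was 0.6 over the 50 windows of the panel and 0.38 over all windows.

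Ppp1r9a promoter: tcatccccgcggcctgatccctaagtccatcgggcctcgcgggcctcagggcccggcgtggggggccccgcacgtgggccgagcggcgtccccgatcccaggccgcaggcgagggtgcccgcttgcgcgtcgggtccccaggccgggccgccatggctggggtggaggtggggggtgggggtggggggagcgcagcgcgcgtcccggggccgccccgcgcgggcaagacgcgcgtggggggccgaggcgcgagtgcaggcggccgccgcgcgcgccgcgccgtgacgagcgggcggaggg

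The other genes of the domain were expressed much less. Peg10, a retrotransposon-derived gene, was at 68.68, 67.95, 70.33 and 77.02 in WT and at 81.91, 85.58, 87.16 and 79.76 in HAR123-KO, without overlap. The fitted log2 fold change, 0.24 ± 0.15 (SE), came with an adjusted p of 0.707 by DESeq2. Sgce, which encodes epsilon-sarcoglycan and shares its control region with Peg10, ranged from 64.39 to 109.1 in WT and from 82.93 to 88.43 in HAR123-KO. Asb4, a SOCS box gene prominent in hypothalamus, had 0, 3, 4 and 1 reads in the WT libraries and 0, 0, 4 and 2 in the HAR123-KO libraries. Calcr, the calcitonin receptor, had 0 reads in all 8 libraries, which allows up to 3 reads in each.

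**Figure D4:**
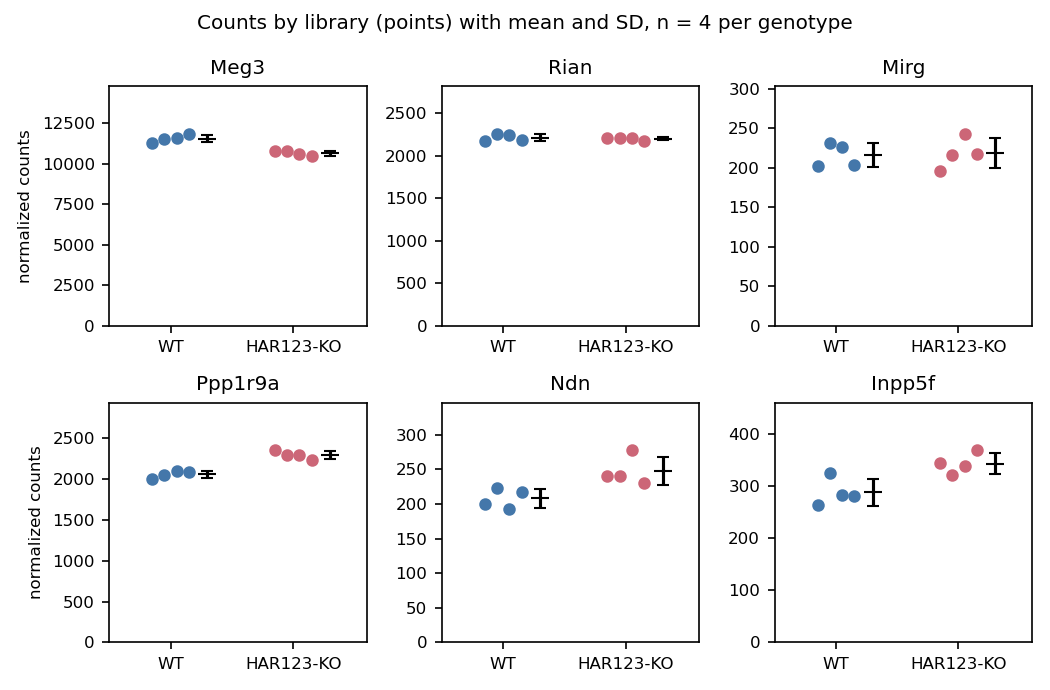
Normalized counts of Meg3, Rian, Mirg, Ppp1r9a, Ndn and Inpp5f in each of the 8 libraries (points), with mean and SD beside them (n = 4 per genotype) and axes starting at 0. Meg3, Ppp1r9a and Ndn do not overlap between WT and HAR123-KO, whereas Rian, Mirg and Inpp5f do.

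In the Snrpn-Ube3a domain of chromosome 7, the counterpart of the human Prader-Willi and Angelman region, no gene was called by DESeq2, and Ndn had an unadjusted p under 0.05. Ndn encodes necdin, a MAGE family protein of postmitotic neurons. It was at 200.4, 222.4, 192.3 and 217.2 normalized counts in WT and at 240.6, 240.6, 277.3 and 230.8 in HAR123-KO, which did not overlap. The log2 fold change was 0.26 ± 0.09 (SE), with p 0.00406 and adjusted p 0.155 by DESeq2. With edgeR's quasi-likelihood test the adjusted p was 0.0437, and with limma-voom it was 0.0782. The edgeR fit was the only 1 of 16 alternatives with an adjusted p under 0.05 for Ndn. Magel2, its neighbour and relative, had 0 to 8 reads per library.

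Snrpn was at 767.8, 808.2, 823.6 and 837.6 normalized counts in WT and at 858, 836.8, 827.6 and 777.4 in HAR123-KO. The genotypes overlapped, with a log2 fold change of 0.03 ± 0.05 (SE). Exons of Gm38393 on the same strand cover 589 bases, and 27.3% of the Snrpn exon length is shared on that strand, so its counts may be partial. Ube3a, the ubiquitin ligase that is maternally expressed in neurons, ranged from 800.2 to 965.1 in WT and from 842.3 to 905.9 in HAR123-KO, with a log2 fold change of -0.04 ± 0.05 (SE). Snhg14, the long antisense RNA of the paternal copy that silences Ube3a, was at 9203, 9163, 9663 and 9092 in WT and at 9176, 8963, 8943 and 9128 in HAR123-KO. Its genotypes overlapped too, with a log2 fold change of -0.04 ± 0.02 (SE). The ratio of Ube3a to Snhg14 counts averaged 0.09615 in WT (SD 0.00582, n = 4) and 0.09645 in HAR123-KO (SD 0.00382, n = 4), although exons of other genes on the opposite strand cover 27.3% of the Ube3a exons. How the counting treated strand is not given in the sources used here, so the ratio may mix the 2 transcripts.

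Peg3 is a zinc finger gene of neurons and placenta and the leading gene of its own domain on chromosome 7. It was at 1655, 1726, 1662 and 1663 normalized counts in WT and at 1615, 1692, 1682 and 1663 in HAR123-KO. The ranges overlapped, and the 95% interval of its log2 fold change was -0.08 to 0.06. Usp29, a deubiquitinase gene that starts 164 bases away on the other strand, ranged from 189.8 to 233.7 in WT and from 207.4 to 217.7 in HAR123-KO. Maternally expressed Zim1 had 7 to 20 reads per library.

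Peg13 lies in an intron of Trappc9, which encodes a trafficking complex subunit. Peg13 was at 981.7, 995.5, 1002 and 1000 normalized counts in WT and at 1029, 1042, 935.9 and 1024 in HAR123-KO. These overlapped, since 1 HAR123-KO library lay below all others, and the log2 fold change was 0.02 ± 0.04 (SE). Trappc9 was at 281.5, 272.8, 261 and 269.6 in WT and at 259, 253.9, 258.8 and 240.3 in HAR123-KO. These did not overlap, yet the log2 fold change of -0.10 ± 0.08 (SE) had an adjusted p of 0.853 by DESeq2. The ratio of Trappc9 to Peg13 overlapped between genotypes, at 0.2604 to 0.2867 in WT and 0.2347 to 0.2766 in HAR123-KO.

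On chromosome 6, Nap1l5 sits in an intron of Herc3, a HECT ubiquitin ligase gene. Nap1l5 was at 610.2, 566.2, 582.9 and 564.8 normalized counts in WT and at 558, 559.1, 593.4 and 640.2 in HAR123-KO, an overlap, with a log2 fold change of 0.02 ± 0.06 (SE). Herc3 had a log2 fold change of 0.05 ± 0.05 (SE). Mest, a hydrolase family gene, was at 219.5, 233.7, 216.1 and 234.3 in WT and at 201.7, 233, 249.2 and 260.6 in HAR123-KO. Its genotypes overlapped, with a log2 fold change of 0.07 ± 0.09 (SE), while its neighbour Copg2, a coatomer subunit gene, had -0.10 ± 0.08 (SE). The 2 genes share 912 bases of exon on opposite strands. The promoters of Nap1l5 (chr6:58907077-58907376, minus strand) and Mest (second listed start, chr6:30737800-30738099, plus strand) are shown as the starts of paternally expressed genes with 2 TGCCGC matches each, in capitals on either strand. They are examples only, as the first listed window of paternally expressed Zdbf2 had 3 matches and that of maternally expressed Calcr had 2.

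Nap1l5 promoter: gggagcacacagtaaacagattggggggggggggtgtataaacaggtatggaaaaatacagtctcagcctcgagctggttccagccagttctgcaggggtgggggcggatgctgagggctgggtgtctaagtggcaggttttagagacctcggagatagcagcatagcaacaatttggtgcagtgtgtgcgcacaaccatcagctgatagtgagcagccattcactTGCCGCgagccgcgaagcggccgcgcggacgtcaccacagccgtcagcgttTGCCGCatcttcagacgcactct
Mest promoter: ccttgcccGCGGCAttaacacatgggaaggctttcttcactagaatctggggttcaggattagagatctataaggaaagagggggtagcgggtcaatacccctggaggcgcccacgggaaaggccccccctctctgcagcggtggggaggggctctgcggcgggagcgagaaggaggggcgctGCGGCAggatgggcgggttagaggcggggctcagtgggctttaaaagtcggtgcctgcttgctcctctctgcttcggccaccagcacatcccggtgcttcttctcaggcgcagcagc

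Among the growth and signalling genes, Inpp5f came nearest to a call. It encodes an inositol phosphatase of the endosome, and 1 of its transcript variants is known to be paternally expressed in brain, which counts per gene do not separate. Inpp5f was at 263.4, 325.3, 283 and 282.4 normalized counts in WT and at 345, 321.4, 339 and 369 in HAR123-KO. The highest WT library exceeded the lowest HAR123-KO library. The log2 fold change was 0.25 ± 0.08 (SE), with p 0.0011 and an adjusted p of 0.0603 by DESeq2. The adjusted p was 0.0175 with edgeR and 0.0434 with limma-voom. With DESeq2 it was 0.0315 when WT replicate 2, the high WT library, was left out, and 0.0837 to 0.496 when any other library was. Grb10, an adaptor that dampens insulin signalling and is expressed from the paternal copy in neurons, was at 148.6, 165.8, 162.7 and 129.4 in WT and at 150.5, 157.8, 162.9 and 153.1 in HAR123-KO. These overlapped, with a log2 fold change of 0.04 ± 0.11 (SE). Ddc, the decarboxylase of dopamine and serotonin synthesis next to Grb10, had 6, 5, 9 and 15 reads in WT and 10, 7, 21 and 10 in HAR123-KO.

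Gnas and Rasgrf1, a Ras exchange factor gene of neurons, were narrowly bounded. Gnas ranged from 2580 to 2632 normalized counts in WT and from 2492 to 2625 in HAR123-KO, with a log2 fold change of -0.03 ± 0.03 (SE), over transcripts of differing imprinting that were counted together. Rasgrf1 ranged from 1215 to 1299 in WT and from 1204 to 1274 in HAR123-KO, and its 95% interval was -0.08 to 0.08. Impact, a regulator of translation, had an interval of -0.09 to 0.10. Zrsr1, a splicing factor gene within the bounds of Commd1 that shares 412 bases of exon with it on the opposite strand, was at 225.2, 210, 256.7 and 217.2 in WT and at 242.7, 248.2, 251.8 and 260.6 in HAR123-KO, which overlapped, with a log2 fold change of 0.14 ± 0.09 (SE). The zinc finger genes Plagl1 and Zdbf2 and the membrane protein gene Blcap had log2 fold changes of -0.00, 0.01 and 0.06, with SEs of 0.13, 0.09 and 0.10.

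The Igf2-H19-Cdkn1c genes, which control fetal growth, had few or no counts. H19, a noncoding RNA of fetal tissues, had 0 reads in all 8 libraries, which allows up to 3 in each. Igf2, the fetal growth factor, had 5, 7, 7 and 6 reads in WT and 2, 4, 5 and 4 in HAR123-KO. As normalized counts these were 5.629 to 7.207 and 2.048 to 4.402, which did not overlap, but the log2 fold change of -0.79 ± 0.61 (SE) had p 0.197. Exons of Gm49394, a gene with 0 counts, lie on the same strand, and 62.8% of the Igf2 exon length is shared on that strand, so reads of Igf2 may have gone uncounted and its level may be understated. Adult brain Igf2 is known from meninges, choroid plexus and vessels. Of the sums given above, those of fibroblast and endothelial markers were lower in HAR123-KO and that of choroid plexus markers was higher. Their part in the Igf2 counts was not tested. Cdkn1c, a cell cycle inhibitor, was at 10.13, 11.32, 5.084 and 9.628 normalized counts in WT and at 11.26, 13.31, 16.73 and 13.83 in HAR123-KO, a narrow overlap with a log2 fold change of 0.64 ± 0.40 (SE). Igf2r, the receptor that clears Igf2 and is expressed from both copies in neurons, was at 262.3, 280, 257.6 and 241.8 in WT and at 256, 264.3, 244.8 and 256.3 in HAR123-KO, an overlap, with a 95% interval of -0.19 to 0.13. Airn, its antisense RNA, had 0 to 7 reads per library.

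**Figure D5:**
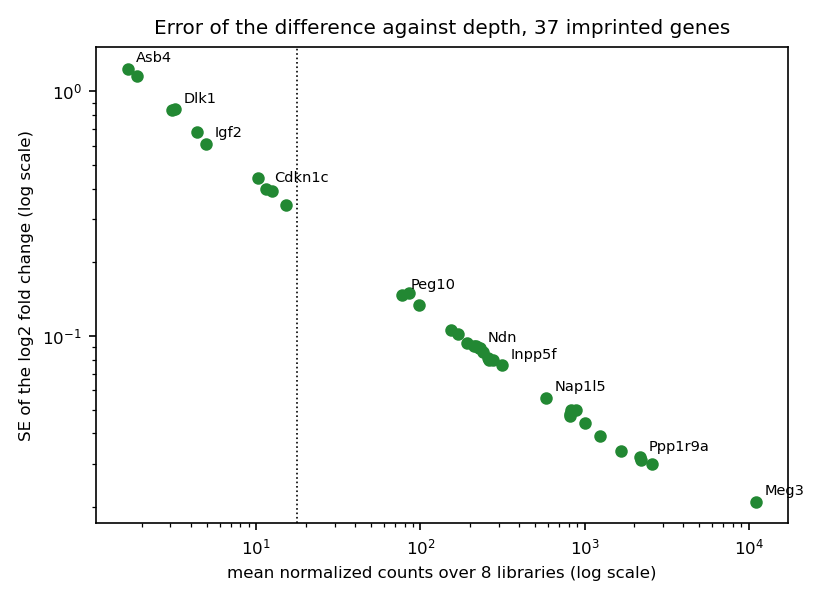
Standard error (SE) of the log2 fold change against the mean normalized counts of the 37 imprinted genes with counts, both on log axes, with the independent filter at 17.6 as a dotted line. The SE runs from 0.021 for Meg3 to 1.24 for Asb4, and the 10 genes left of the line were given no adjusted p.

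Of 49 other imprinted genes of these and further domains, 27 were tested, 11 higher and 16 lower, the median log2 fold change was -0.02, and 1 had an adjusted p under 0.05, beside 1.69% of all genes tested. This was Kcnq1ot1, the paternal antisense RNA that silences Cdkn1c and its neighbours. Kcnq1ot1 was at 1668, 1668, 1803 and 1776 normalized counts in WT and at 1479, 1488, 1535 and 1502 in HAR123-KO, without overlap. Its mean fell by 13.2%, with a log2 fold change of -0.20 ± 0.04 (SE) and an adjusted p of 5.90e-06 by DESeq2. Xlr3b, an X-linked gene with near-identical copies that was picked out after its values were seen, was not among the 27 because its mean of 16.1 normalized counts was under the independent filter. Its log2 fold change was -3.07 ± 0.47 (SE), with an adjusted p of 1.64e-08 by edgeR and of 5.32e-08 by DESeq2 without that filter. Nnat, a neuronal proteolipid gene inside the Blcap intron, was at 118.2, 132.8, 123.7 and 142.3 in WT and at 116.7, 97.94, 82.76 and 118 in HAR123-KO. The genotypes did not overlap, the highest HAR123-KO library lying just under the lowest WT library, with a log2 fold change of -0.32 ± 0.13 (SE) and an adjusted p of 0.277 by DESeq2.

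Factors that set or keep imprints, such as the DNA methyltransferases, the ZFP57 cofactor Trim28 and the insulator protein Ctcf, gave no calls. Of 32 such genes, 26 were tested, 13 higher and 13 lower, at a median log2 fold change of 0.01 within a range of -0.40 to 0.17. None had an adjusted p under 0.05 by DESeq2, 1 had an unadjusted p under 0.05, beside 8.78% of all genes tested, and the 95% interval lay between -0.5 and 0.5 for 21 of the 26, beside 70.5%. That 1 gene was the chromatin remodeller Atrx, with a log2 fold change of 0.09 ± 0.04 (SE) and an adjusted p of 0.457 by DESeq2, and of 0.283 by edgeR.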

How the data were processed

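Frontal cortex total RNA of 4 WT and 4 HAR123-KO libraries was analysed from the deposited table of raw read counts per gene. The authors aligned reads with STAR 2.5.2b to GRCm38 and counted them over exons with featureCounts (submitters' processing notes); the setting for strand and for reads with several matches is not given in the sources used here. No column of other samples was present. Counts were fitted over all genes with DESeq2 1.42.0 under R 4.3.3 (Wald test on genotype alone, median-of-ratios size factors, independent filter at 0.1, Benjamini-Hochberg adjustment), after the scripts were tested on simulated data. Normalized counts are counts divided by size factors. Alternatives were edgeR 4.0.16, limma-voom (limma 3.58.1), other size factors and filters, the replicate number as a block and leaving out each library. Divided by its degrees of freedom, chi-square between libraries was 1.208 to 1.305 within a genotype and 1.577 to 1.718 across genotypes. The counts of no library therefore duplicate those of another, but this does not tell separate animals from repeat libraries of 1 RNA sample. Genes given in all libraries were members with an unadjusted p under 0.05, the highest per kb in each domain of 2 or more, Meg3, Rian, Mirg, Igf2, H19, Calcr, Asb4 and Ddc; Peg10 and Trappc9 were added after their values were seen. Members and lists were chosen with earlier results of these data known. Promoters and microRNAs are from RefSeq (GRCm38.p6).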

Additional observations from a re-analysis of the deposited data

Results flagged for a closer look

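In 3 of 62 sets of 4 libraries (31 imprinted genes averaging 10 or more normalized counts, each genotype taken separately), 1 library lay far from the other 3 by Dixon's gap test, where chance gives about 1 in 20, or 3.1 sets. Rian in HAR123-KO replicate 4 was the lowest, at 2175 normalized counts, with the others between 2204 and 2209. Peg3 in WT replicate 2 was the highest, at 1726, with the others between 1655 and 1663. Peg13 in HAR123-KO replicate 3 was the lowest, at 935.9, with the others between 1024 and 1042. None of the 3 genes had an adjusted p under 0.05 by DESeq2 in any fit that left out a library.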

How the results depend on the processing

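Of the imprinted genes, 0 passed the limits on adjusted p and fold in every alternative. The count with an adjusted p under 0.05 was 2; it was 4 with edgeR (Meg3, Ppp1r9a, Ndn and Inpp5f), 3 with limma-voom (Meg3, Ppp1r9a and Inpp5f), 2 with library totals (Ppp1r9a and Inpp5f), 0 with the replicate block, and 2 to 3 when a library was left out. Same-numbered libraries did not deviate together (correlations of -0.011, -0.008, 0.018 and -0.015), so the numbers do not pair them; over all genes the replicate block left 22 calls of 215, the adjusted p of Meg3 and Ppp1r9a was 1, and that of Kcnq1ot1 was 0.931. The cause was not tested. Meg3 kept its call in 14 of 16 alternatives and Ppp1r9a in 15 of 16, both in all 8 fits that left out a library, over which Meg3 ran from -0.13 to -0.11 and Ppp1r9a from 0.14 to 0.17. Inpp5f was called in 4 of 16, the fourth being library totals (0.0206). Signs were compared across alternatives for the genes named by the rule and not for the rest of the panel. Library totals moved the median of all genes by 0.039, and with it Igf2r to 0.009, Peg3 to 0.027 and Rian to 0.029, all uncalled genes close to 0. Among the genes named by the rule, leaving out a library turned the sign of Asb4 (-1.48 to 0.026), Grb10 (-0.029 to 0.083), Igf2r (-0.063 to 0.007), Mirg (-0.04 to 0.065), Nap1l5 (-0.026 to 0.04), Peg13 (-0.00 to 0.052) and Peg3 (-0.019 to 0.003), none of them called. Genes under 17.6 normalized counts had SEs of 0.343 or more, so differences of the size seen in deeper genes were not detectable there.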

Other observations

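Xlr3b, an X-linked gene reported as imprinted in mouse brain and 1 of the 49 other imprinted genes, had 29, 32, 21 and 30 reads in the WT libraries and 3, 5, 4 and 2 in the HAR123-KO libraries. The genotypes did not overlap. Xlr3b is 1 of several near-identical copies, so which copy the reads came from is uncertain. The 6 genes Xlr3a, Xlr3b, Xlr3c, Xlr4a, Xlr4b and Xlr4c together had 68, 62, 54 and 66 reads in WT and 9, 10, 10 and 2 in HAR123-KO, and each of the 6 had fewer reads in HAR123-KO. Among them Xlr4a had 29 reads over the WT libraries and 0 over the HAR123-KO libraries. How reads that match several copies were counted is not given in the sources used here.

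Gabrg3, a GABA receptor subunit gene near Snrpn and Ube3a that is not a firmly imprinted gene, had an unadjusted p of 0.00715 with an adjusted p of 0.222 by DESeq2. It was at 246.6, 240.9, 228.8 and 238.6 normalized counts in WT and at 272.3, 291, 248.3 and 304.2 in HAR123-KO, without overlap.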
